A study of Mus musculus with 6 samples.

Results

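Cxcl12 encodes a secreted chemokine, and Cxcr4 and Cxcr7 (now also called Ackr3) encode the cell surface receptors that bind it. They were taken by symbol and are 3 of the 20367 genes kept from the deposited files, each with 1 row per library. The cells were sorted from cortices of C57BL/6J mouse embryos positive for both reporters, from heterozygous Tbr2(Eomes)-GFP parents crossed to homozygous DCX-mRFP mice. Tbr2 is made by intermediate progenitors and doublecortin (DCX) by young neurons, and green protein persists for a time in the neurons those progenitors produce. Neurons of intermediate progenitor origin (IPN) were the double-color cells, and non-IPN were those with red color alone, so both groups carried both transgenes. There were 6 libraries, 1 for each population on embryonic days 13.5, 15.5 and 16.5 (E13.5, E15.5, E16.5). Per the labels' protocols, 1000000 sorted cells were used for each E15.5 library, with no amplification, and 10000 for each of the others, whose transcriptomes were amplified. Age, cell number and amplification therefore changed together between E15.5 and the other days and cannot be told apart there. The gates do not mark a cell type by its own genes, and the labels do not say how many embryos each library pooled.

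In the developing mouse cortex, CXCL12 is known from the meninges and from the intermediate progenitor zone, and it attracts tangentially migrating interneurons and Cajal-Retzius cells, which carry CXCR4. CXCR4 signals through inhibitory G proteins. CXCR7 does not couple to G proteins in the classical way: it recruits arrestin, takes up the ligand and so limits how much of it reaches CXCR4. The series title frames the populations as projection neurons and interneurons, so the comparison asks which population held the transcripts of the ligand and which those of the receptors.

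The promoter windows of the 3 genes are shown because the receptor transcripts were lower in IPN and the ligand transcript higher, so the windows belong to genes with opposite population ratios. They run from 250 bases before to 50 bases after the start annotated by RefSeq on build GRCm38.p6, which is not the build named for the deposited files (mm9). Capitals mark the TATA box core TATAAA and the GC box GGGCGG, each searched on both strands after the sequences had been read. Cxcl12 lies at chr6:117168285-117168584 on the plus strand, Cxcr4 at chr1:128592250-128592549 on the minus strand, and Cxcr7 at chr1:90203730-90204029 on the plus strand.
Cxcl12: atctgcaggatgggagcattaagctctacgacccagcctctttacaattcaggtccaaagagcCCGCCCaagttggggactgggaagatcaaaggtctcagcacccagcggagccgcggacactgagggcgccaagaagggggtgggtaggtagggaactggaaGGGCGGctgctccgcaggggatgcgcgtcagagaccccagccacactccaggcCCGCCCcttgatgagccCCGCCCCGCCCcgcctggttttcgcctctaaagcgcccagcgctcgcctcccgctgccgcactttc
Cxcr4: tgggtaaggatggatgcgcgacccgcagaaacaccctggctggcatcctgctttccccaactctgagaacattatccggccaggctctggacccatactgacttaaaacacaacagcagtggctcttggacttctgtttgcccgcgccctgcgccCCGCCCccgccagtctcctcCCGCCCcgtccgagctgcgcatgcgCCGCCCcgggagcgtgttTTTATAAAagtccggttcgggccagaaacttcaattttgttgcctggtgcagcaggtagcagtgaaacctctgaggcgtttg
Cxcr7: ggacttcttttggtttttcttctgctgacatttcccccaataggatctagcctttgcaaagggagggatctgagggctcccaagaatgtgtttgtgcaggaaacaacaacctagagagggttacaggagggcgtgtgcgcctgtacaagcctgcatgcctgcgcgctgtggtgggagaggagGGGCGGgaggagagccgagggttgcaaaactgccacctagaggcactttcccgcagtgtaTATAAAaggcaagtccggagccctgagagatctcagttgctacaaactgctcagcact

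Both receptor windows held TATAAA, on the gene's strand from position -30 in Cxcr4 and -8 in Cxcr7, counted from the annotated start. In Cxcr4 a copy on the other strand overlapped it. Those letters were not in the Cxcl12 window, and 13.6% of 32851 annotated mouse windows of this length held them. The GC box stood in the windows of all 3 genes, as in 35.7% of windows, and Cxcl12 held 5 copies, 2 of them overlapping, against 3 in Cxcr4 and 1 in Cxcr7. The GC content was 64.7% for Cxcl12, 59.3% for Cxcr4 and 54% for Cxcr7. A match describes these letters only, and no factor was measured at them.

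Facts of all libraries were as follows. Column totals of the deposited values ran from 12583677 to 32538995. These values appear to have been scaled before deposit, so the depth behind them is unknown and the precision of a low value cannot be computed. Levels are given below in ppm, that is, scaled so that each column sums to 1000000, and 3 values in a row are those of E13.5, E15.5, E16.5. Of 12 projection neuron markers, 10 were higher in IPN, and of 16 markers of interneurons from the medial ganglionic eminence (MGE), 13 were lower in IPN, beside 0.982% of all genes tested called higher and 2.41% called lower. Without the E15.5 pair 1 and 8 were called, and without the E13.5 pair 6 and 14. Over all genes, these 2 fits called 1 higher and 53 lower of 19309, and 186 higher and 392 lower of 18910. In non-IPN at E16.5 the projection neuron markers summed to 5508 ppm, against 1434 at E13.5 and 974 at E15.5. Hemoglobin genes took 4.92% of the non-IPN library at E13.5.

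Cxcl12, the ligand, was higher in IPN than in non-IPN at each of the 3 days. The E13.5 pair gave 23.9 ppm in IPN and 1.5 ppm in non-IPN, the E15.5 pair 23.6 in IPN and 6.82 in non-IPN, and the E16.5 pair 10.4 in IPN and 4.77 in non-IPN. The lowest IPN library lay above the highest non-IPN library, an order shared by 1.43% of the 19561 genes tested, and 14.2% were higher in IPN within each day. Day by day from the earliest, the IPN level was 15.9-fold, 3.46-fold and 2.18-fold that of non-IPN. The fitted log2 difference over the 3 days was 2.41 ± 0.60 (SE, IPN minus non-IPN), which missed the threshold of 0.05 after adjustment over all genes (limma adjusted p = 0.0594, unadjusted p = 0.0022). In bulk samples, a lower share of cells that hold a transcript and less of it per cell cannot be told apart.

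The Cxcl12 ratio was smaller at each later day. In IPN the level at E16.5 was 2.29-fold below that at E13.5, and in non-IPN it was 3.18-fold above, with 1 library each and the same amplification. The population difference changed by -0.94 ± 0.32 log2 per day, which was not called (limma adjusted p = 0.143). Meningeal, endothelial and mural cells are also known to make Cxcl12, and their markers were low in all libraries: no gene of these 3 lists reached a mean of 10 ppm. The 14 meningeal markers summed to 25.9, 14.2 and 7.73 ppm in IPN in day order, against 31.5, 17.9 and 10.7 in non-IPN. Most of the E13.5 sums was Crabp2, a retinoic acid binding protein, at 22.6 ppm in IPN and 21.8 in non-IPN. The collagen genes Col1a1 and Col3a1 were at most 0.768 and 0.277 ppm in IPN and 0.383 and 0.319 in non-IPN. The 13 endothelial markers summed to 1.49, 3.96 and 7.87 ppm in IPN and to 6.43, 9.05 and 9.14 in non-IPN, with Cdh5 and Pecam1, both junction proteins, listed at 0 in IPN at E13.5. The 8 mural markers summed to 4.52, 6.33 and 16.8 ppm in IPN and to 5.43, 9.37 and 9.06 in non-IPN. The meningeal and endothelial sums were lower in IPN on each day, and the mural sum was higher in IPN at E16.5 and lower on the other days. The part of these cell types in the Cxcl12 difference was not tested.

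**Figure D1:**
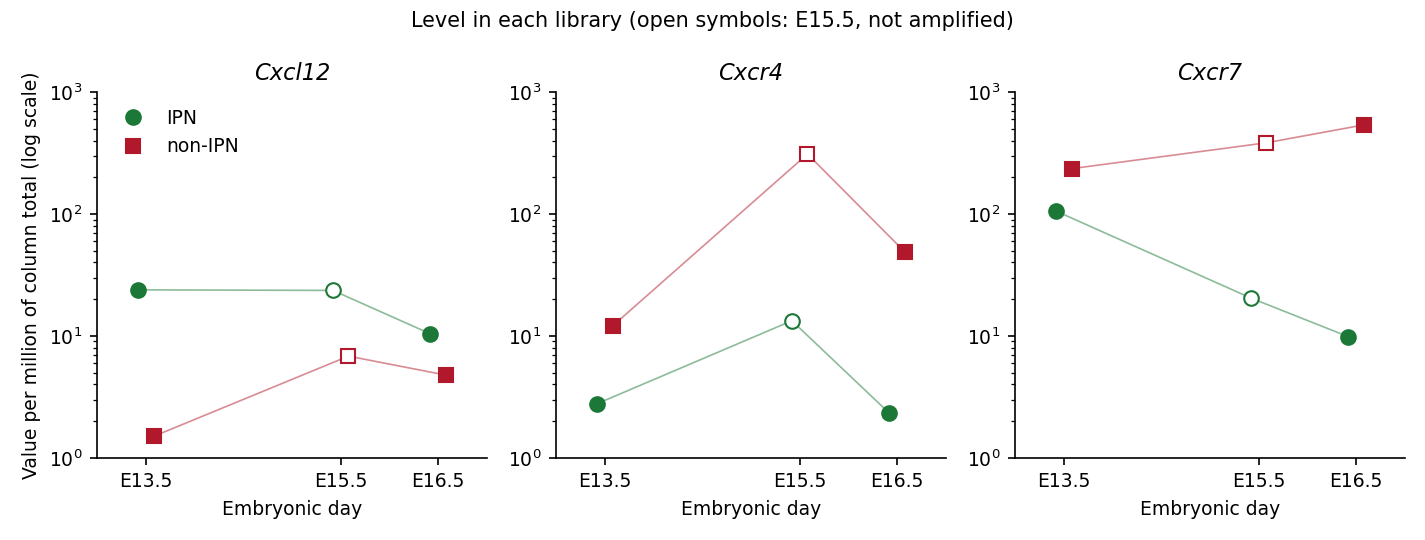
Level of each gene in each library as the deposited value in ppm (parts per 1000000 of the column total), on a log axis, against embryonic day; green circles are IPN, red squares non-IPN, open symbols the E15.5 libraries that were not amplified, and each point is 1 library. Cxcl12 lies higher in IPN, and both receptors lie lower in IPN at every day.

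Cxcr4, the receptor that signals through G proteins, was lower in IPN at each day. The E13.5 pair gave 2.78 ppm in IPN and 12.1 ppm in non-IPN, the E15.5 pair 13.3 in IPN and 309.9 in non-IPN, and the E16.5 pair 2.33 in IPN and 48.8 in non-IPN. The populations overlapped across days, since IPN at E15.5 lay above non-IPN at E13.5, but not within a day, and 15.2% of genes tested were lower in IPN within each day. In day order, the non-IPN level was 4.35-fold, 23.3-fold and 21-fold that of IPN. The fitted log2 difference was -3.52 ± 0.50 (limma adjusted p = 0.00345), which made Cxcr4 the only one of the 3 genes called between populations, beside 3.39% of all genes tested and 2.41% called lower. Without the E15.5 pair the fitted difference was -3.04 and no longer passed (limma adjusted p = 0.226).

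Within non-IPN, Cxcr4 varied more across days than the other 2 genes did. Its highest non-IPN library, at E15.5, was 25.7-fold its lowest, at E13.5, compared with 4.54-fold for Cxcl12 and 2.29-fold for Cxcr7. The Cxcr4 and Cxcl12 ranges set the E15.5 library, which was not amplified, against an amplified one. Between the amplified libraries, Cxcr4 in non-IPN was 4.04-fold higher at E16.5 than at E13.5, against 3.18-fold for Cxcl12 and 2.29-fold for Cxcr7. Cxcr4 in IPN at E16.5 lay 1.2-fold below IPN at E13.5. The population difference changed by -0.81 ± 0.26 log2 per day (limma adjusted p = 0.129). Under scaling by column totals, an alternative chosen after seeing the data, it passed at -0.82 (limma adjusted p = 0.0301). That scaling called 1443 of 19561 genes for this change, against 255 with the values as deposited.

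Markers of other cell types known to carry Cxcr4 were present as well. The 14 markers of microglia and macrophages summed to 17.7, 10.6 and 16.7 ppm in IPN in day order and to 1198, 1210 and 736 in non-IPN, and all 14 were called lower in IPN, against 2.41% of all genes tested. Without the E15.5 pair 8 of the 14 were called lower. Between 9 and 14 of them were above 0 in an IPN library. The microglial receptor Cx3cr1 was at most 0.461 ppm in IPN, against 58.1 to 182 in non-IPN. The 16 MGE interneuron markers summed to 241, 205 and 265 ppm in IPN and to 1824, 6237 and 3751 in non-IPN. Of 9 markers of interneurons from the caudal ganglionic eminence, 3 were called lower in IPN, namely Sp8, Npas1 and Npas3, with a list median of -2.60, and 1 was called higher. Their sums, 849, 680 and 765 ppm in IPN and 314, 660 and 747 in non-IPN, were mostly the one called higher, the cannabinoid receptor Cnr1, at 716, 611 and 724 ppm in IPN and 103, 209 and 487 in non-IPN. The 10 Cajal-Retzius markers summed to 1280, 822 and 395 ppm in IPN and to 520, 1694 and 664 in non-IPN, and none was called between populations. Both the MGE and the Cajal-Retzius sums had the order of Cxcr4 over the non-IPN days. That order has its top in the E15.5 library, which was not amplified. The part of each of these cell types in the Cxcr4 difference was not tested.

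Cxcr7, the arrestin-coupled receptor, was also lower in IPN at each day, and its difference widened. The E13.5 pair gave 105.5 ppm in IPN and 235.2 ppm in non-IPN, the E15.5 pair 20.4 in IPN and 383.3 in non-IPN, and the E16.5 pair 9.85 in IPN and 537.4 in non-IPN. Every IPN library lay below every non-IPN library, as for 6.55% of genes tested. With each later day the non-IPN level was a larger multiple of the IPN level, at 2.23-fold, 18.8-fold and 54.6-fold.

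The fitted log2 difference of Cxcr7 over the 3 days, -3.58 ± 0.93, was close in size to that of Cxcr4, but was not called (limma adjusted p = 0.204). The spread of its ratio over the days was wide, with log2 ratios of -1.01, -4.17 and -5.54 in day order. Without the E13.5 pair the fitted difference was -4.86 and passed (limma adjusted p = 0.00109), and with a pseudocount of 5 in place of 1 it was -3.56 and passed (limma adjusted p = 0.0428).

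The change of the Cxcr7 difference with day was tested directly and passed. It was -1.52 ± 0.16 log2 per day (limma adjusted p = 0.000172), and 0.68% of genes tested were called in this direction, 0.624% in the other and 1.3% in either. From the amplified pairs alone it was -1.51 per day. The E15.5 pair has little weight in the fitted slope, so these values were bound to lie close. The fit left 1 residual degree of freedom, the departure of the ratios from a straight line over days, beside a prior of 14.5. With the trend and robust options off, the same value did not pass (limma adjusted p = 0.401). In that setting 0 of 19561 genes were called. With 1 library per population and day, Cxcr7 levels at E13.5 and E16.5 differed in opposite directions in the populations. In IPN the level at E16.5 was 10.7-fold below that at E13.5, and in non-IPN it was 2.29-fold above.

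The lower Cajal-Retzius sum in IPN at E15.5 than at E13.5 rested mostly on 1 gene. Nhlh2, a transcription factor of early neurons named after its values were seen, was at 585, 44.9 and 26.5 ppm in IPN in day order. In non-IPN it was at 100, 43.9 and 24.3. In IPN, Ebf2 and Ebf3 were also lower at E15.5 (2.12 and 14.2 ppm) than at E13.5 (9.37 and 43.5). The other genes of the list were higher in IPN at E15.5 than at E13.5. Reln and Trp73, defining Cajal-Retzius markers, had their highest IPN level at E15.5. Reln was at 613, 688 and 306 ppm in IPN and at 304, 1509 and 573 in non-IPN. Trp73 was at 19.3, 32.0 and 14.2 ppm in IPN and at 32.5, 51.6 and 6.12 in non-IPN. The 9 intermediate progenitor markers summed to 2828, 694 and 1281 ppm in IPN and to 2273, 561 and 1120 in non-IPN, and the 10 radial glia markers to 1248, 379 and 550 in IPN and to 4364, 637 and 1072 in non-IPN. Their part in the lower Cxcr7 levels of later IPN libraries was not tested.

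**Figure D2:**
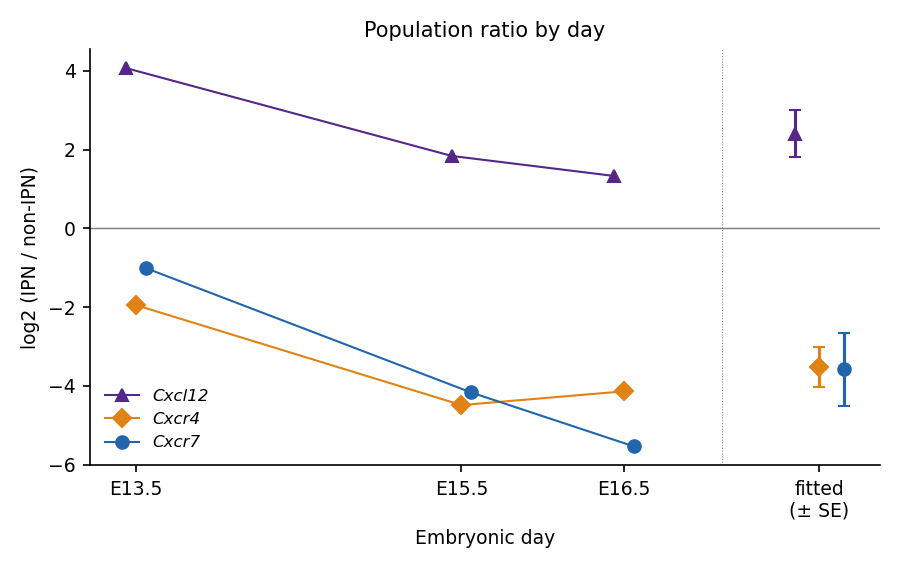
Log2 ratio of IPN over non-IPN (deposited value plus 1) for each gene against embryonic day, with the fitted difference over the 3 days at the right and its standard error as bars. Cxcl12 lies above 0 and both receptors below 0 at every day, and the Cxcr7 ratio runs from -1.01 at E13.5 to -5.54 at E16.5.

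The ratio of ligand to receptor transcripts shifted the same way at each day. That direction follows from the results above, since Cxcl12 was higher and both receptors lower in IPN at each day. The log2 ratio of Cxcl12 to Cxcr4 was higher in IPN than in non-IPN by 6.02, 6.32 and 5.46 on the 3 days in order. The log2 ratio of Cxcl12 to Cxcr7 was higher in IPN by 5.08, 6.01 and 6.87. The shift of ligand over Cxcr4 varied by less than 1 log2 unit across the days, while each gene's own ratio varied by more than 2. The log2 ratio of Cxcr7 to Cxcr4 was higher in IPN by 0.94 at E13.5 and by 0.31 at E15.5, and differed by -1.41 at E16.5. These shifts compare libraries of 1 day and rest on 1 pair each, and no levels of different genes were set against each other.

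From E13.5 to E16.5, each of the 3 genes was lower in IPN and higher in non-IPN, as were 13.6% of genes tested. On the log2 scale Cxcl12 differed by -1.27 in IPN and 1.47 in non-IPN, Cxcr4 by -0.33 and 1.86, and Cxcr7 by -3.49 and 1.04. The age difference pooled over both populations was 0.099 ± 0.73 for Cxcl12, 0.76 ± 0.61 for Cxcr4 and -1.23 ± 1.14 for Cxcr7. None was called (limma adjusted p = 0.967, 0.524 and 0.616), against 6.02% of genes tested, 3.76% higher and 2.26% lower. In non-IPN the highest Cxcl12 library was E15.5, and the lowest was E13.5. With 1 library per population and day, neighbors in the order of levels have no spread of their own against which to compare them.

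Other chemokine genes were mostly low. Of 32 other chemokine ligands tested, 4 were called lower in IPN and 0 higher, beside 2.41% and 0.982% of all genes tested. The median log2 difference of these ligands was -0.63, beside -0.021 over all genes tested. The 4, named here after their values were seen, were Ccl3, Ccl6, Ccl9 and Ccl12, all known products of myeloid cells. Ccl3 was listed at 0 in the 3 IPN libraries and was at 19.2, 5.99 and 10.1 ppm in non-IPN. Ccl27a, the ligand with the highest mean, was at 40.9, 32.8 and 39.9 ppm in IPN and 26.1, 33.6 and 50.8 in non-IPN (limma adjusted p = 0.818). It overlaps Il11ra1 on the opposite strand, so its value is uncertain.

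Other chemokine receptors, 22 in all, had a median of -0.62. Of these, 4 were called lower in IPN and 0 higher, beside 2.41% and 0.982% of all genes tested. Among the 4 were Cx3cr1 (-8.06 ± 0.57), the fractalkine receptor of microglia, and, named after their values were seen, Ccr1 and Ccr2. These 4 calls moved with the microglia and macrophage markers given above. Darc, a scavenger receptor for chemokines, was at 24.7, 23.2 and 29.8 ppm in IPN and 11.9, 27.4 and 31.1 in non-IPN (limma adjusted p = 0.718), but it overlaps Cadm3 on the same strand. Without the E15.5 pair 0 of the ligands and 1 of the receptors were called lower, beside 53 of all 19309 genes tested. Without the E13.5 pair 4 ligands and 3 receptors were, beside 392 of 18910 genes. Without the E16.5 pair 5 ligands and 3 receptors were, beside 433 of 18858 genes.

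**Figure D3:**
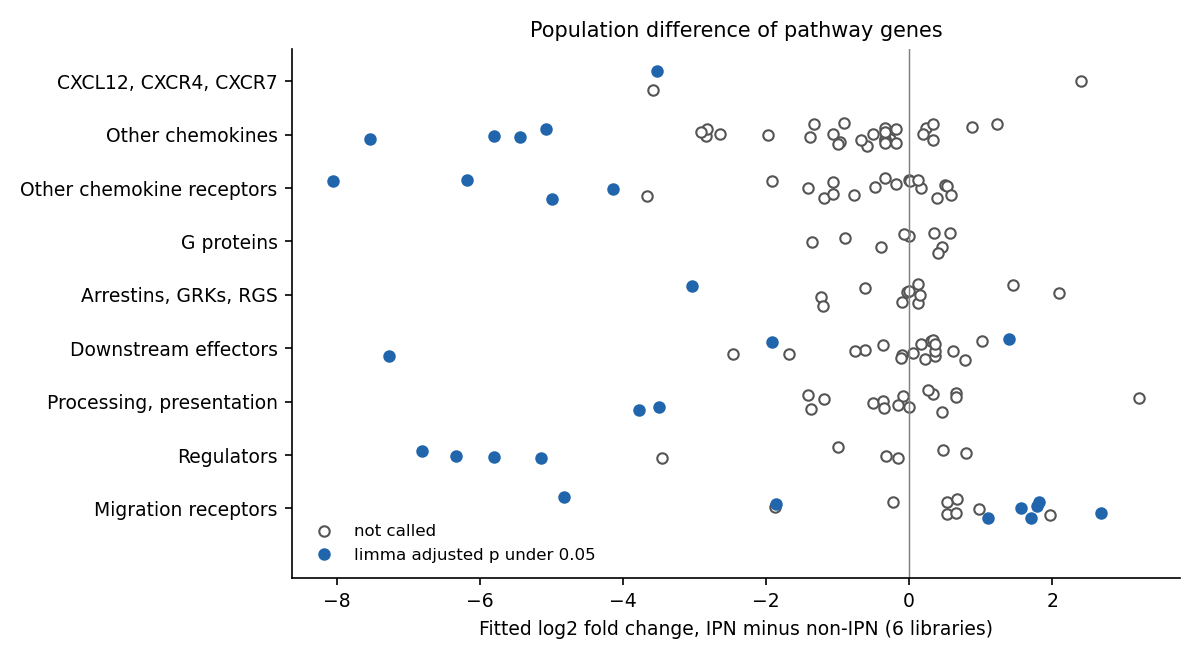
Fitted log2 difference of IPN minus non-IPN for the genes of each list, 1 point per gene, with filled points for genes at a limma adjusted p under 0.05 and open points for the rest; vertical position within a list is jitter. The G protein and effector genes lie mostly near 0, the called genes among other chemokine ligands and other chemokine receptors all lie below 0, and 6 migration receptors called lie above 0.

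Genes of the signaling machinery are given beside the 3.39% of all genes tested that were called between populations, 0.982% higher and 2.41% lower. Of 9 G protein subunits, none was called by limma at an adjusted p under 0.05, and the median log2 difference was 0.0052. Gnb1, a beta subunit, was at 531, 865 and 514 ppm in IPN and 558, 1005 and 555 in non-IPN. Gng2, a gamma subunit, was at 420, 953 and 620 ppm in IPN and 393, 1952 and 975 in non-IPN (limma adjusted p = 0.544).

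Of 12 arrestins, receptor kinases and RGS proteins, which switch off G protein signaling, Rgs10 alone was called between populations (-3.03 ± 0.53). It was at 3.94, 1.11 and 3.69 ppm in IPN and 28.6, 19.4 and 22.2 in non-IPN. Arrb1, an arrestin, was at 10.6, 170 and 17.3 ppm in IPN and 16.9, 264 and 33.9 in non-IPN (limma adjusted p = 0.319). Rgs2 was at 275, 9.04 and 36.1 ppm in IPN and 206, 56.6 and 124 in non-IPN (limma adjusted p = 0.350). Rgs4, named after its values were seen, had a population difference that rose by 1.78 log2 per day (limma adjusted p = 0.0113), opposite in sign to that of Cxcr7.

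Of 21 downstream effectors, 1 was higher and 2 were lower in IPN. Elmo1, which with Dock proteins activates Rac, was lower (-1.91 ± 0.23, limma adjusted p = 0.00155), at 31.8, 52.5 and 61.3 ppm in IPN and 146, 245 and 203 in non-IPN. Pik3cg, the kinase subunit of leukocytes named after its values were seen, was at no more than 0.205 ppm in IPN and at 24.3, 13.4 and 16.1 in non-IPN. Between E13.5 and E16.5, 3 rose and 0 fell, beside 3.76% and 2.26% of all genes tested. Among the 3 were the kinase Pak1 (1.34 ± 0.30) and the regulatory subunit Pik3r1 (1.33 ± 0.33).

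Of 17 genes that cut, bind or present the ligand, 2 were called lower in IPN and 0 higher, beside 2.41% and 0.982% of all genes tested. They were Mmp2, a protease that cleaves CXCL12, at 1.03, 2.06 and 0.821 ppm in IPN and 12.1, 34.2 and 9.46 in non-IPN, and Sdc4, a heparan sulfate proteoglycan, both named after their values were seen. Hmgb1, which can bind CXCL12, was at 856, 61.4 and 748 ppm in IPN and 1399, 86.6 and 906 in non-IPN (limma adjusted p = 0.502). The proteoglycan Agrn was at 165, 510 and 168 ppm in IPN and 144, 669 and 233 in non-IPN (limma adjusted p = 0.900). Without the E15.5 pair, no gene of the arrestin and RGS, effector and processing lists was called between populations by limma. In that fit 54 of all 19309 genes tested were called. At E15.5 both populations had much less Hmgb1 and more Arrb1 than at the amplified days, so levels of single genes moved with the library method or the day, which cannot be told apart.

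Of 10 regulators tied to Cxcl12 or its receptors in mouse, 4 were lower in IPN and 0 higher, beside 2.41% and 0.982% of genes tested. The same number was lower without each pair in turn. Among the 4 were the interneuron factors Dlx2 (-6.81 ± 0.55), Lhx6 (-6.33 ± 0.40) and Dlx1 (-5.80 ± 0.32). Lhx6, which is known to promote Cxcr7 expression in mouse MGE-derived interneurons, was at 0.129, 14.6 and 7.04 ppm in IPN and 36.7, 1163 and 326 in non-IPN. Over the non-IPN days, Lhx6 and Cxcr4 were highest at E15.5, in the library that was not amplified, and Cxcr7 at E16.5. Between the amplified non-IPN libraries, each of them was higher at E16.5 than at E13.5. The part of Lhx6 in the receptor levels was not tested. The difference of Dlx2 rose by 1.15 log2 per day (limma adjusted p = 0.0137), so it became smaller in size with day, whereas that of Cxcr7 became larger. Foxc1, a factor of the meninges, was at no more than 0.194 ppm in IPN and 0.0715 in non-IPN. Between E13.5 and E16.5, Lhx6 (4.06 ± 0.49) and Dlx1 (2.07 ± 0.40) rose, and Eomes (-1.98 ± 0.27) and Emx2 (-2.21 ± 0.48) fell.

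Other receptors known from interneuron migration went both ways. Of 16 genes, 6 were higher and 2 lower in IPN, beside 0.982% of genes tested called higher and 2.41% lower. Without the E15.5 pair 0 and 0 were called, beside 1 higher and 53 lower of 19309 genes tested. Erbb4, the neuregulin receptor, was lower (-4.82 ± 0.66), at 2.84, 4.21 and 2.33 ppm in IPN and 16.1, 325 and 170 in non-IPN. Its log2 ratios were -2.33, -6.21 and -5.94, and the fitted change was -1.31 ± 0.27 log2 per day (limma adjusted p = 0.0366). Ntrk2, a neurotrophin receptor, was lower (-1.86 ± 0.26).

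The ephrin receptor Ephb1 (2.68 ± 0.43) and the receptor kinase Kit (1.82 ± 0.27) were higher in IPN. Ephb1 was at 30.9, 84.9 and 85.5 ppm in IPN and 3.79, 7.30 and 40.1 in non-IPN. Between E13.5 and E16.5, 5 of the 16 rose and 0 fell, beside 3.76% of all genes tested called higher and 2.26% called lower. Among the 5 were Met at 3.58 ± 0.83, Robo1 at 3.18 ± 0.28, Ephb1 at 2.31 ± 0.53 and Nrp1 at 2.03 ± 0.29.

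**Figure D4:**
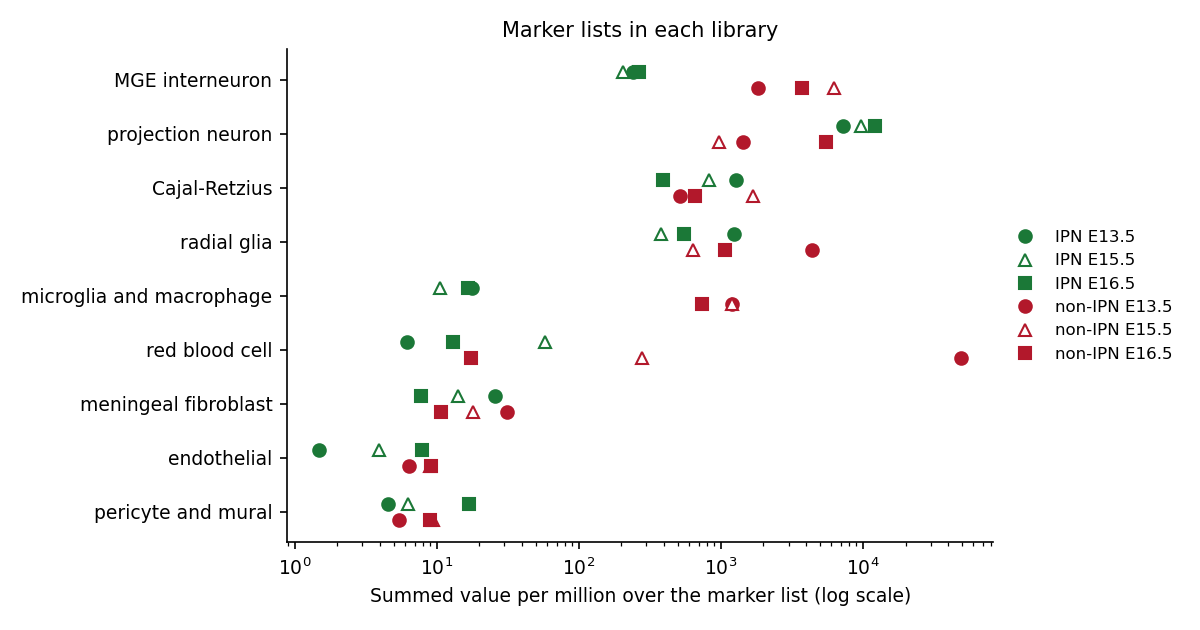
Summed value in ppm over each marker list in each library, on a log axis; green symbols are IPN and red symbols non-IPN, circles E13.5, open triangles E15.5 and squares E16.5. The microglia and MGE interneuron sums are lower in every IPN library, and the meningeal, endothelial and mural sums stay at or under 31.5 ppm in all libraries.

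Genes whose course over the 6 libraries was most like that of each member were found among the 9349 genes with a mean of at least 10 ppm, by Pearson's r of log2(ppm + 1). These values share libraries, day and library method, and are given as a description. Most like Cxcl12 were Zfp637 (r = 0.995), Tagln3 (0.994), Gpn2 (0.968), Zmynd8 (0.967) and Bok (0.966). Tagln3, an actin-binding protein of neurons, was at 340, 336 and 253 ppm in IPN and 121, 197 and 161 in non-IPN, a narrower range than that of Cxcl12, and was called higher in IPN (1.11 ± 0.23, limma adjusted p = 0.0234).

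Most like Cxcr4 were Igfbp4 (r = 0.998), Cbfa2t3 (0.995), C1qtnf1 (0.994), Kcnip1 (0.987) and Pkd2 (0.987). Cbfa2t3, a transcriptional corepressor, was at 12.4, 39.2 and 12.2 ppm in IPN and 29.2, 457 and 136 in non-IPN (-2.61 ± 0.42, limma adjusted p = 0.00675). Igfbp4, which binds insulin-like growth factors, was at 12, 34.2 and 11.6 ppm in IPN and 31.3, 240 and 64.8 in non-IPN. All 5 had their highest library, like Cxcr4, in non-IPN at E15.5, which was not amplified.

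Most like Cxcr7 were Pbx3 (r = 0.982), Snx30 (0.972), Vstm2b (0.971) and Nova1 (0.967). Vstm2b, a membrane protein, was at 18.1, 4.36 and 2.53 ppm in IPN and 15.5, 46.5 and 51.3 in non-IPN, and its difference changed by -1.54 ± 0.26 log2 per day (limma adjusted p = 0.0113). Pbx3, a homeodomain cofactor, was at 14.0, 4.36 and 4.51 ppm in IPN and 18.2, 28.8 and 39.9 in non-IPN. Between the members, r was 0.682 for Cxcr4 with Cxcr7, -0.352 for Cxcl12 with Cxcr4 and -0.575 for Cxcl12 with Cxcr7. No receptor was among the 5 genes most like the other.

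**Figure D5:**
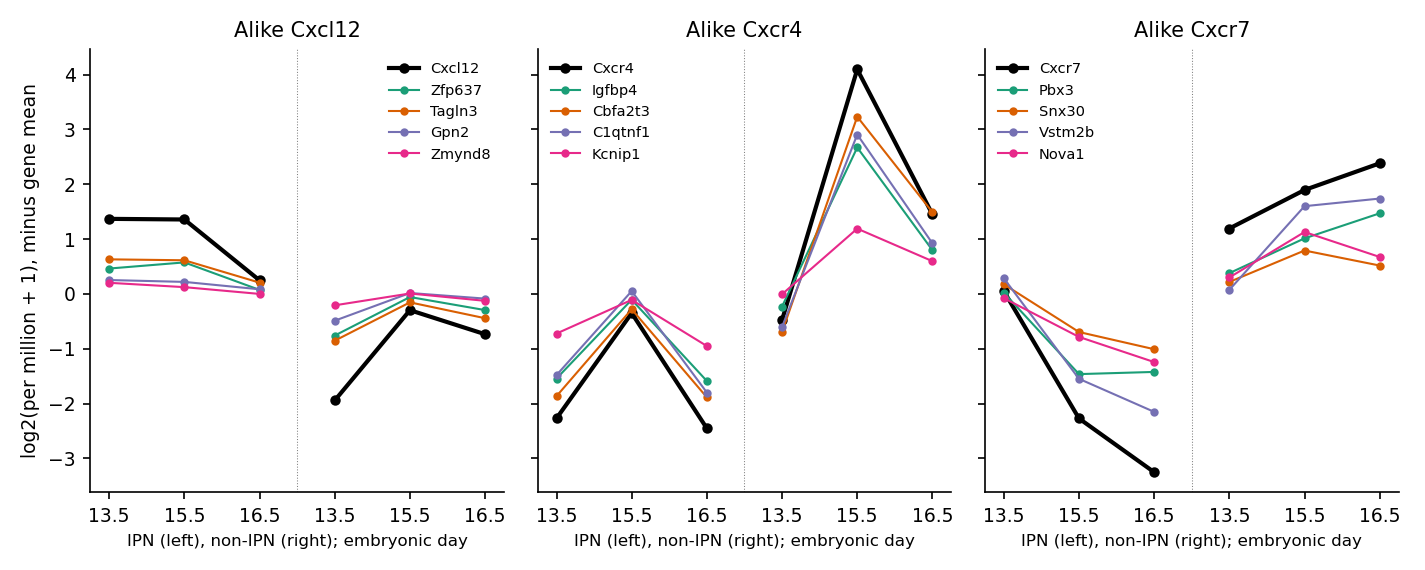
Log2(value in ppm + 1) minus the gene's mean over the 6 libraries, for each member (black) and the 4 genes most like it, with the 3 IPN libraries left of the dotted line and the 3 non-IPN libraries right of it, each by embryonic day. The black lines have the widest range in each panel.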

How the data were processed

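RNA sequencing libraries of 2 sorted populations at 3 embryonic days were compared. The submitters' processing notes name build mm9 and the tools edgeR, SAMtools 0.1.18, TopHat 1.2.0 and CASAVA 1.9, with no roles. How reads were counted and scaled is not given in the sources used here. The deposited signal is a whole number per gene symbol, treated as scaled by the authors: upper quartiles were 438 to 444 in the 4 amplified libraries, against 1501 and 1501.5 at E15.5. Transcript isoforms share 1 value.

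Files were joined by symbol. Of 20373 rows, 3 symbols listed more than 1 time were dropped, and 19561 of 20367 genes were above 0 in a library and were tested. Log2(value + 1) was fitted with limma 3.58.1 (R 4.3.3) using its trend and robust options, a scale that understates changes of low genes. Population and day were factors. A second fit added population by day as a number. P-values were adjusted by Benjamini-Hochberg over all genes tested, and a call is an adjusted p under 0.05. The labels' protocols describe 1 sort of each day's cortices into both populations, so day is the pairing. Deviations of same-day libraries from their population means correlated at 0.561, 0.830 and 0.431. The days are the only replication. P-values of the first fit therefore rest on the spread of the population ratio over days, moderated toward other genes. Those of the second fit rest on the departure of the ratios from a straight line over days, with 1 residual degree of freedom, moderated likewise. The fit was tested on simulated data.

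The 3 genes and the lists were chosen with earlier results of these data known. Of 264 list symbols, 262 were matched. Named from each pathway list were up to 4 called genes per comparison by size, among those with a mean of at least 10 ppm (value per 1000000 of the column total), or the 2 with the highest mean where fewer than 2 were called. Promoter windows are from RefSeq. Alternatives changed the pseudocount, scaling, filter, moderation, pairing and libraries. Some genes that these rules name are not reported here.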

Additional observations from a re-analysis of the deposited data

Results flagged for a closer look

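The population difference of Cxcr7 differed between days by the test of that change itself, at -1.52 log2 per day (IPN minus non-IPN, limma adjusted p = 0.000172). The 3 days, earliest first, had log2 ratios of -1.01, -4.17 and -5.54. The amplified pairs alone gave -1.51 per day, which is no separate check, since the E15.5 pair has little weight in the fitted slope. The ratio was more negative at each later day.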

How the results depend on the processing

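The direction of the population difference of all 3 genes held under every alternative run. The Cxcr4 difference stayed at -3.52 but did not pass with neither trend nor robust moderation (adjusted p = 0.262) or with no replicate block for day (adjusted p = 1). Leaving out 1 pair gave -4.31 to -3.04 for Cxcr4, -4.86 to -2.59 for Cxcr7 and 1.58 to 2.96 for Cxcl12. The Cxcr7 difference passed at -3.56 with a pseudocount of 5. Genes called between populations were 664 of 19561 tested, and 358 of the 9349 tested at a mean of at least 10 ppm. They numbered 0 with neither trend nor robust (1946 at an unadjusted p under 0.05). With no replicate block they numbered 0 (676 at an unadjusted p under 0.05), and without 1 pair 54 to 595. With scaling by column totals the median difference of all genes was -0.15, against -0.021 as deposited.

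The age differences, not called, changed sign when 1 library was left out: -1.15 to 1.34 for Cxcl12 (-0.72 without non-IPN at E16.5), -0.42 to 1.94 for Cxcr4 and -3.15 to 0.70 for Cxcr7 (0.25 without IPN at E16.5). Genes called with age, 1178 in all, numbered 697 with a pseudocount of 5, 97 without the E15.5 pair, 0 with neither trend nor robust (3414 at an unadjusted p under 0.05), and 0 without any 1 amplified library (1809 to 4025 at an unadjusted p under 0.05).

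For the change with day, alternatives other than the amplified pairs alone were chosen after seeing the data. Cxcr7 kept -1.52 but did not pass with neither trend nor robust. Cxcr4 passed with column totals (-0.82), with those without hemoglobin genes (-0.79) and with median-of-ratios scaling (-0.79). Genes called, 255 of 19561 tested, numbered 1443, 1422 and 1558 under those 3 scalings and 530 and 162 with pseudocounts of 0.5 and 5. They were 135 of the 9349 tested at a mean of at least 10 ppm, and 0 with neither trend nor robust. Levels and ligand to receptor shifts moved by less than 1 SD over the days. The cause of these changes was not tested.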
